A study of Homo sapiens with 25 samples.

Results

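Messenger RNAs of the cytosolic ribosomal proteins were followed in RIP-seq, the sequencing of RNA that comes down with a captured protein, here mCherry-tagged IGF2BP1 of HCT116 cells, a line from a human colorectal carcinoma. Protein-coding genes were taken by symbol (RPL and RPS genes followed by a number, with RPLP0, RPLP1, RPLP2, RPSA and FAU, but without the RPS6K kinase genes and genes on the Y chromosome) where they had at least 10 counts in 12 or more of the 23 mCherry libraries. Of 87 candidates among 20044 protein-coding genes, 80 were members, 48 of the large and 32 of the small ribosomal subunit. RPL17, with 26 to 177 counts in all 23 libraries, lay among the lowest inside this limit, and RPS10, with 10 or more in 11 libraries and at most 17, lay just outside. The other candidates left out were RPL10L, RPL36A, RPL39L, RPL3L and a pair of Y-linked genes. A filter on level (TMM-scaled CPM above 10 in 12 or more of the mCherry libraries, where CPM is a gene's count relative to the library's protein-coding counts) then passed 8734 genes, among them 77 members, 46 large and 31 small. RPL17 and RPL26L1 were among the 3 below it and entered no test.

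All mCherry lines carried knockouts of IGF2BP2 and IGF2BP3 and the Tet-OsTIR1-PURO construct, and expressed mCherry-IGF2BP1 as wild-type (WT), S181E, Y396E or RQ. S181E and Y396E put a negative charge where linker 1 and linker 2 are phosphorylated, and in RQ arginines of linker 1 were replaced by glutamine. Each line was treated with PBS (control) or 500 µM sodium arsenite for 2 h, with 3 libraries a group and 2 for RQ in arsenite, from dishes grown independently. Each line was a separate lentiviral population sorted through a narrow gate for mCherry, so the mutation and the line cannot be told apart. Parental HCT116 cells without mCherry gave 1 control and 1 arsenite library, a measure of RNA recovered by the beads alone. mCherry libraries held 22246381 to 60273548 counts in all and 384091 to 1926408 on the members, while the parental control library held 1238013 and the parental arsenite library 18942497. The epithelial genes EPCAM, KRT8, KRT18, KRT19 and CDH1 were at 27.7 CPM or more in every mCherry library, the epithelial gene VIL1 had at most 11 counts, and the leukocyte gene PTPRC had none. Total RNA of the lysates was not analysed here, so less of an mRNA in the cells and less of it bound by IGF2BP1 cannot be told apart. RNA recovered by the beads alone was not removed from the values either.

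Ribosomal proteins are made in near-equal amounts from some of the most abundant mRNAs of a growing cell. Most of these mRNAs begin with a C followed by a run of pyrimidines, the 5' terminal oligopyrimidine (TOP) tract, through which LARP1 and mTOR signalling switch their translation together. IGF2BP1 is a cytoplasmic RNA-binding protein with RRM and KH domains that protects bound mRNAs, and in arsenite it gathers with untranslated mRNA in stress granules.

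The start of the mRNA is the feature most members share, and 12 start regions are shown for the genes the results turn on. Capitals mark the longest run of C and T within the 10 bases on either side of the RefSeq start, where it reached 7. Runs were cut at the edge of these bases, so in RPLP1 the next base, also a C, is not marked. The regions are each 30 bases from 10 before that start (GRCh38.p14), 5' to 3' on the strand of the gene. They lie at chr12:56116623-56116652 (plus strand, RPL41), chr3:39406710-39406739 (plus, RPSA), chr15:69452808-69452837 (plus, RPLP1), chr12:120201092-120201121 (minus, RPLP0), chr1:6199576-6199605 (minus, RPL22), chr3:170870176-170870205 (minus, RPL22L1), chr1:153990752-153990781 (plus, RPS27), chr15:63157458-63157487 (minus, RPS27L), chr6:42879606-42879635 (plus, RPL7L1), chr19:54200848-54200877 (plus, RPS9), chr11:65122115-65122144 (minus, FAU) and chr3:51995876-51995905 (minus, RPL29). Each window covers the promoter's end and the first bases of the transcript.
RPL41: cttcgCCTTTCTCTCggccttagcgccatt
RPSA: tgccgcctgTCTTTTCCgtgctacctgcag
RPLP1: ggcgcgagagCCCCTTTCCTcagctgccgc
RPLP0: ggcgcgaggCCCTTCTCTCgccaggcgtcc
RPL22: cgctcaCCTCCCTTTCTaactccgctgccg
RPL22L1: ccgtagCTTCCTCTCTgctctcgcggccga
RPS27: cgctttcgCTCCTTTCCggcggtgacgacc
RPS27L: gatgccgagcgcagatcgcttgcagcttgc
RPL7L1: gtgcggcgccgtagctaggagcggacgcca
RPS9: gcttccgcgCCTCTTTCTCagtgaccgggt
FAU: tcgCTTCTTCCTCTTTCTCgactccatctt
RPL29: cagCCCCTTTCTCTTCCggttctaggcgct

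Of the 80 members, 65 had a start in the RefSeq table, and 50 of these had a run of at least 7 pyrimidines (C or T, on the gene's strand) at 1 of their starts or more. Counted over starts, 52 of 81 (64.2%) of the members' starts held such a run, against 14.0% of the 35116 starts of all genes. The paralogues RPS27L and RPL7L1, which have no run longer than 2, and the core proteins RPL3 and RPL4, whose longest run is 5, were among the 15 without it. A run is a description of the letters in this window and not a mapped TOP tract.

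Within the members, levels were spread widely. Per kilobase of exon in the WT control libraries (mean CPM per kb, n = 3), RPSA (2089), RPLP0 (2065), RPL12 (2021), RPS2 (1915) and RPS27 (1643) were the highest. RPSA is a small subunit protein also known as a laminin receptor, and RPLP0 is the base of the acidic stalk that recruits elongation factors. Per kilobase of coding sequence RPL41, the shortest ribosomal protein, ranked first in place of ninth, and 8 of the first 10 genes were shared by both scales. Reads that matched several places in the genome were not counted, so members with near-identical processed pseudogenes are underestimated, and the 668 ribosomal protein pseudogenes with counts held 0.686 to 0.896% as many counts as the members.

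Ribosomal protein mRNAs made up a smaller part of the immunoprecipitated RNA after arsenite. In the WT control libraries numbered 1, 2 and 3, the members took 4.52, 5.17 and 3.34% of protein-coding counts, and in the WT arsenite libraries they took 2.02, 1.98 and 1.80%. The groups did not overlap in WT or in any mutant line. The mean over the 12 mCherry control libraries was 4.46 ± 1.08% (SD; lowest 2.79, median 4.68, highest 6.44), and over the 11 arsenite libraries it was 2.26 ± 0.349% (SD; lowest 1.80, median 2.25, highest 2.81). In the parental libraries the share was 6.92% in control and 5.39% in arsenite. When all counts were taken as the whole instead, the parental share was 4.15% in control and 4.53% in arsenite, so its direction turned with the denominator, whereas the mCherry means were 2.83 and 1.63%.

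**Figure D1:**
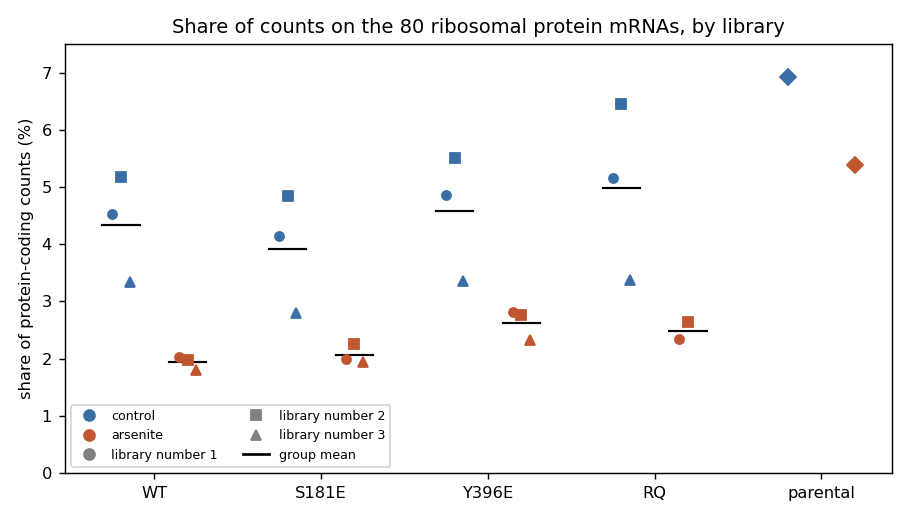
Share of protein-coding counts on the 80 ribosomal protein mRNAs (y axis, percent) in each library (point), by line and treatment (x axis). Every arsenite library of a line lies below every control library of that line, the 12 mCherry control libraries span 2.79 to 6.44%, and the control libraries numbered 3 are the lowest of their groups.

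Control libraries of the same number deviated together. The library numbered 3 was the lowest control library of every line, with shares of 3.34% in WT, 2.79% in S181E, 3.36% in Y396E and 3.38% in RQ, and the library numbered 2 was the highest. Relative to the mean of its group, the median member in the control library 3 was at -0.30 in WT, -0.39 in S181E, -0.39 in Y396E and -0.51 in RQ on the log2 scale, while the median of all genes stayed within -0.04 to 0.04 in every control library. The labels do not say what a number stands for. Each count that uses control libraries was therefore also taken without the libraries numbered 3, a choice made after their values were seen.

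Arsenite against control in the WT line asked which mRNAs came down more or less with mCherry-IGF2BP1 under stress. The members' median ratio to the parental library was 1.36 in control and 0.503 in arsenite. For them, RNA bound by IGF2BP1 and RNA recovered by the beads alone cannot be told apart. The ribosomal protein mRNAs fell nearly as a whole: 73 of 77 were called lower and 0 higher, with a median log2 change of -1.04 (range -2.37 to -0.15) against 0.03 over all 8734 genes. A call meant a Benjamini-Hochberg adjusted p under 0.05 in edgeR's quasi-likelihood test and a change of more than 20%. Of all genes, 31.8% were called lower and 35.4% higher. Large subunit members had a median of -1.01 (44 of 46 called) and small subunit members -1.06 (29 of 31). Without the libraries numbered 3 in control, 77 were called lower. Leaving out any 1 WT library gave 67 to 73. All 19 tested genes mutated in Diamond-Blackfan anaemia, an inherited failure of red cell production, were among the calls, with a median of -1.05.

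The largest fall was in RPL41, a peptide at the subunit bridge. Its WT control libraries had 913, 1026 and 651 CPM, and its WT arsenite libraries had 194, 156 and 151. All arsenite libraries lay far below the lowest control library, and the log2 change was -2.37 (SE 0.22, adjusted p = 2.1e-09, edgeR). RPSA had 3639.9, 4018 and 2826 CPM in control and 809, 804 and 665 in arsenite, a change of -2.20 (SE 0.19, adjusted p = 6.5e-10). Stalk members fell by unequal amounts. RPLP1, which pairs with RPLP2 on the stalk, had 1786, 1929 and 1149.8 CPM in control and 429, 425 and 344 in arsenite, a change of -2.02 (SE 0.26, adjusted p = 3.3e-07). Its partner RPLP2 changed by -1.02 and the stalk base RPLP0 by -1.81, and the differences between these members were not tested.

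Among the small subunit members, RPS27, a zinc-binding protein, fell by 1.94 on the log2 scale, RPS2, at the mRNA entry side, by 1.63, RPS19, the gene most often mutated in Diamond-Blackfan anaemia, by 1.44, and RPS6, the S6 kinase substrate, by 0.89. RPS27A, made as a fusion to ubiquitin, fell by 0.90 and RPS3, at the mRNA entry channel, by 0.96. In the large subunit RPL23A, at the tunnel exit, fell by 1.93 and RPL13A, known for its role outside the ribosome in interferon-treated cells, by 1.47. RPL11, which with RPL5 carries the 5S rRNA and binds MDM2, fell by 1.05 and RPL5 by 0.53. RPL3 and RPL4, which reach into the peptidyl transferase region, fell by 0.65 and 0.33. RPL10, which joins the large subunit late, fell by 0.77, and RPL26 and RPL39, at the exit tunnel, by 0.76 and 0.71. Each of these members was called and its control and arsenite libraries did not overlap.

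Only 4 of the 77 members were not called in WT, and all had negative estimates: RPS9 at -0.15 (SE 0.26), RPL8 at -0.16 (SE 0.22), FAU at -0.26 (SE 0.25) and RPL22L1 at -0.32 (SE 0.27), with adjusted p between 0.29 and 0.61 in edgeR. RPS9 had 197, 199 and 139.5 CPM in control and 156, 167.5 and 158 in arsenite. The arsenite libraries of RPS9, a protein of the small subunit body, lay within the range of the control libraries. RPL8 had 540, 642 and 401 CPM in control and 489, 466 and 462 in arsenite, again within that range. FAU, made as a fusion of a ubiquitin-like protein with RPS30, and RPS9 both have a pyrimidine run at the start, as printed above.

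Paralogues gave different values. RPL22 had 95.8, 81.9 and 93.1 CPM in control and 36.2, 38.7 and 39.4 in arsenite, with no overlap and a change of -1.25 (SE 0.13, adjusted p = 1.7e-08, edgeR). RPL22L1, its paralogue, had 33.1, 54.5 and 30.6 CPM in control and 26.6, 32.8 and 34.9 in arsenite, and these overlapped. RPL7L1, a paralogue of RPL7 that acts in making the large subunit, fell by 1.14 and RPS27L, the p53-responsive paralogue of RPS27, fell by 0.97. RPL7L1 and RPS27L, which lack a pyrimidine run, were thus called as well. The difference between paralogues was not tested.

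**Figure D2:**
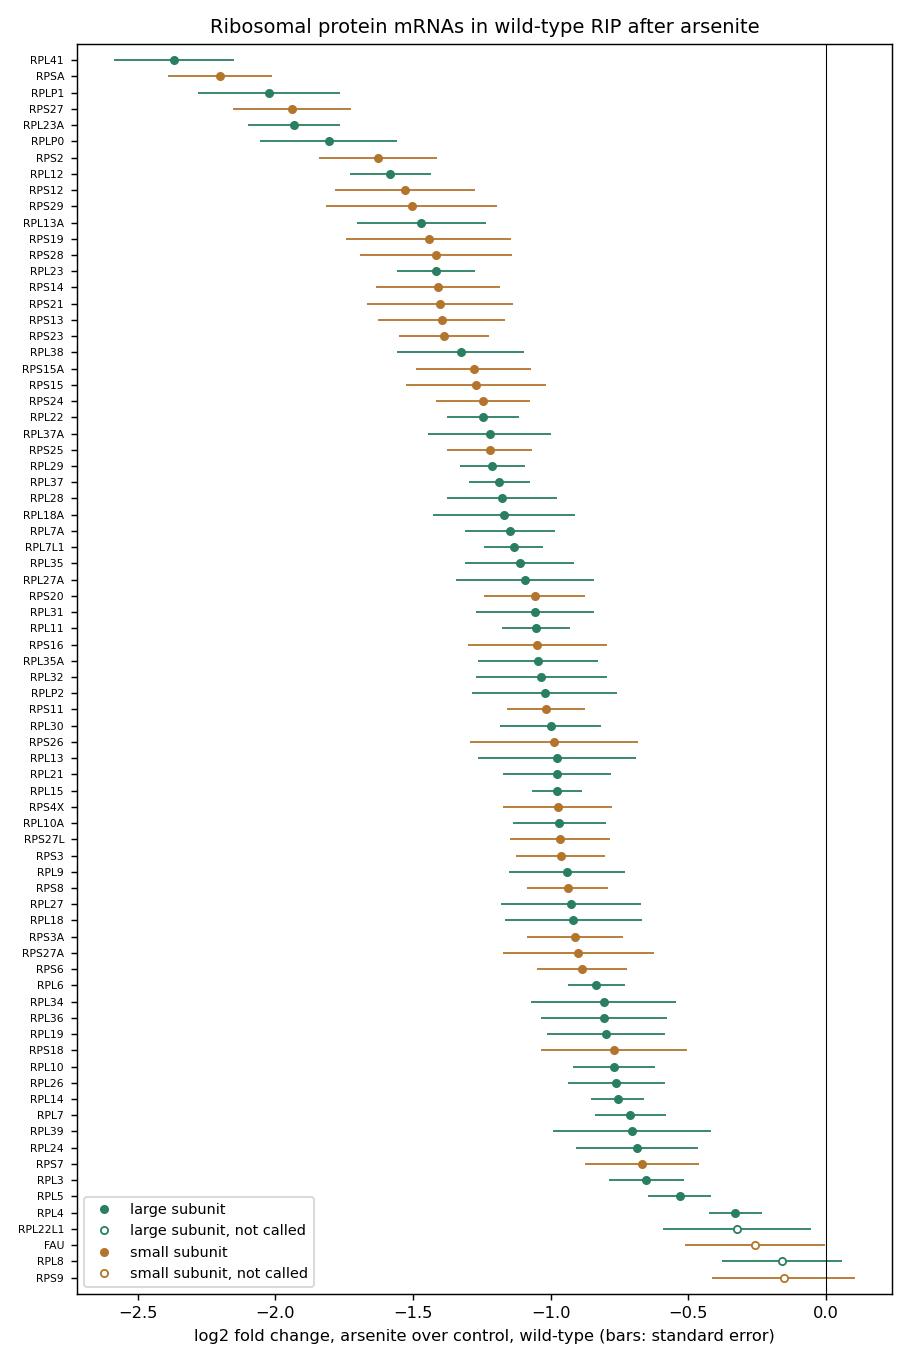
Log2 change from control to arsenite in the WT line (x axis) for 76 of the 77 tested members (y axis, in order of the change), with bars of 1 SE and open points for members not called. All estimates shown are below 0, from -2.37 for RPL41 to -0.15 for RPS9, and 4 members were not called.

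The pyrimidine run and the coding length were set against the change within the members. In WT the median change was -1.05 over the 50 tested members with a run and -0.98 over the 13 tested without one. Shorter coding sequences had larger falls, with a Spearman rho of 0.32 between coding length and log2 change over the 77 members, and 0.35 over the 8657 other genes. The points share the same libraries, and this is a description. In the shortest class, coding sequences up to 300 bases, the median was -1.36 over 10 members and -0.92 over 147 other genes, and between 600 and 900 bases it was -0.97 over 20 members and -0.26 over 1100 others. Members thus lay below other genes of like coding length in both classes.

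Gene groups near the members moved less in WT. Of 20 other TOP mRNAs, which encode translation factors and related proteins, 11 were called lower and 2 higher, with a median of -0.36. Of 27 ribosome assembly genes, 3 were lower and 13 higher, with a median of 0.36. Of 61 mitochondrial ribosomal protein genes, 11 were lower and 10 higher, with a median of 0.01. Calls went in both directions in each of these lists, and in 1 direction in the members.

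The mutant lines were then taken with WT. Averaged over the 4 lines, 74 of 77 members were called lower and 0 higher (37.7% and 38.1% of all genes), with a median of -0.80 against 0.01. The 3 that were not called were RPS9 at 0.04 (adjusted p = 0.80), RPL8 at 0.05 (0.66) and FAU at 0.07 (0.62) in edgeR. RPL22L1, not called in WT alone, was called here at -0.32 (SE 0.14). By line the median change was -1.04 in WT, -0.91 in RQ, -0.72 in S181E and -0.56 in Y396E, and these lines share no library. In RQ 71 of 77 members were called lower and 0 higher (32.3% and 32.4% of all genes), in S181E 63 and 0 (34.6% and 33.3%), and in Y396E 46 and 0 (33.8% and 31.3%), where 31 members were not called. Among libraries of the same number the median was -0.99, -1.29 and -0.83 in WT, -1.05 and -1.17 in RQ, -0.81, -0.91 and -0.41 in S181E, and -0.58, -0.67 and -0.33 in Y396E. The pair numbered 3 gave the smallest fall in each line that has it.

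**Figure D3:**
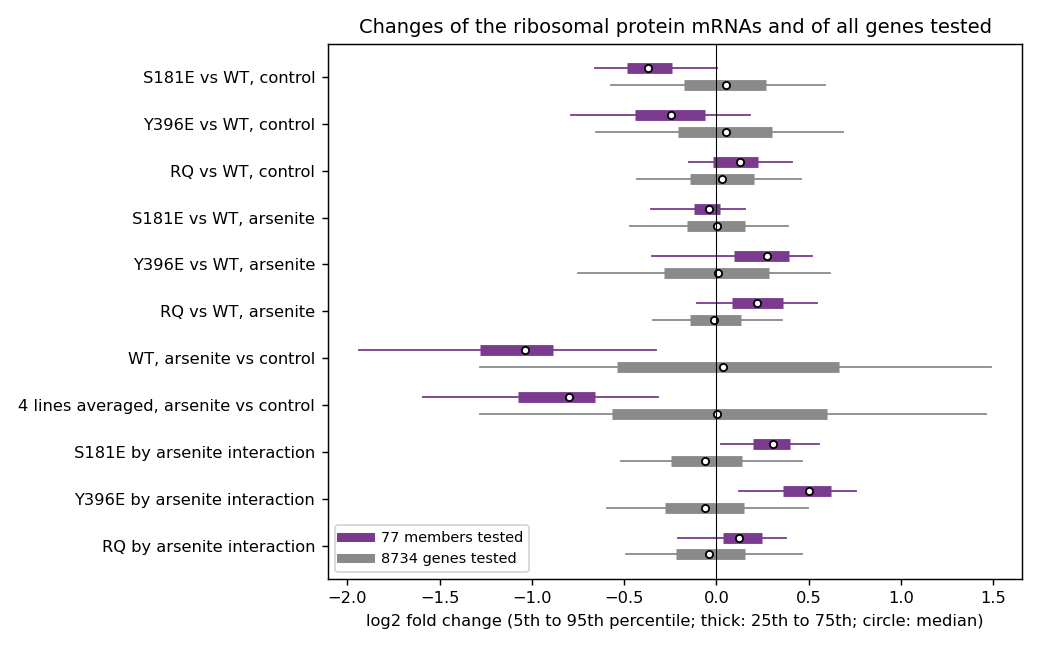
Log2 changes (x axis) of the 77 tested members and of all 8734 genes in each comparison (y axis). Circles mark medians and bars mark quantiles as named on the axis. The members' median lies at -1.04 in WT arsenite against control, at -0.37 and -0.25 in S181E and Y396E against WT in control, and at 0.27 in Y396E against WT in arsenite.

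Whether a mutant's fall differed from that of WT was tested as an interaction. For Y396E, 3 members were called, all with a smaller fall (2.85% of all genes were called either way), and the median difference over members was 0.50, against -0.06 over all genes. RPL23A, at the tunnel exit, had a difference of 0.93 (SE 0.23, adjusted p = 0.026), RPL23, in the same subunit, 0.73 (SE 0.20, adjusted p = 0.046) and RPL29, a heparin-binding surface protein, 0.65 (SE 0.16, adjusted p = 0.030) in edgeR. In RPL23A the WT libraries had 275, 316 and 241 CPM in control and 77.5, 67.6 and 72.8 in arsenite, and the Y396E libraries had 167, 171 and 108 in control and 77.4, 79.3 and 66.0 in arsenite. The arsenite libraries overlapped between the lines and the control libraries did not. This count moved with single libraries: it was 0 without WT arsenite library 2 or 3, Y396E arsenite library 1 or 2, or Y396E control library 3, 1 without WT arsenite library 1 or WT control library 2, and 5 without WT control library 3. It was 24 without the control libraries numbered 3 of all lines, and 30 with the library number as a block. Calls over all genes under these alternatives are not given here, so they show only how far the members' count moved. For S181E the interaction had 0 calls in edgeR (0.389% of all genes), 0 calls in DESeq2 and a median of 0.31. At an unadjusted p under 0.05 there were 4 of 77 members and 1128 of all 8734 genes. For RQ the interaction had 0 calls in edgeR (0.0687% of all genes) and 0 in DESeq2, with 1 member and 844 of all genes at an unadjusted p under 0.05. Its median over members was 0.12, which turned to -0.08 without RQ control library 3 and to -0.04 without WT control library 2.

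Mutants were next set against WT within each treatment, to ask how the lines differed in the mRNAs that came down with the tagged protein. These comparisons share the WT libraries. In S181E in control 12 of 77 members were called lower and 0 higher, and 65 were not called, while 8% of all genes were called lower and 12.8% higher. The median member was at -0.37 (range -1.58 to 0.23) and the median of all genes at 0.05. Between libraries of the same number the median was -0.30, -0.37 and -0.42. The lowest were RPS20, a protein of the small subunit head, at -1.58, RPL8, near the peptidyl transferase centre, at -0.84 and RPL30, a kink-turn binding protein, at -0.83. The smallest called changes were RPL15 at -0.28, RPL23 at -0.40 and RPL37, a zinc-binding protein, at -0.45. The count was 4 without S181E control library 3, where the median member was at -0.20, 6 without WT control library 2, 24 without WT control library 3, 33 without all control libraries numbered 3, and 45 with the library number as a block. Scaled to total counts it was 4 lower and 1 higher, with the median member at -0.20 and the median of all genes at 0.22. Calls over all genes in these fits are not given here, so a larger count is not a stronger result about the members.

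In Y396E in control 13 members were called lower and 0 higher, and 64 were not called. The share called lower was near that of all genes, of which 12.7% were called lower and 16.2% higher. The median member was at -0.25 against 0.05, while the mean share of counts on the members was 4.58% in Y396E and 4.34% in WT control libraries. Same-numbered libraries gave medians of -0.13, -0.30 and -0.35. The largest difference was in RPL41, with 230.4, 189.98 and 136 CPM in Y396E against 913, 1026 and 651 in WT. Every Y396E library lay far below the lowest WT library, and the log2 difference was -2.22 (SE 0.22, adjusted p = 1.2e-07, edgeR). S181E had 722, 575 and 457 CPM of RPL41 and RQ had 979.7, 888 and 709, so that the S181E and RQ ranges overlapped that of WT. RPS20 was at -1.62 and RPL29 at -1.13, while the smallest called changes were in RPL15 at -0.32, RPL12, a stalk base protein, at -0.44 and RPL28 at -0.53. The count was 7 without Y396E control library 3, 8 without WT control library 2, where the median member was at -0.07, 19 without WT control library 3, 23 without all control libraries numbered 3, and 29 lower and 2 higher with the library number as a block. Scaled to total counts it was 5 lower and 4 higher, with the median member at 0.02 and the median of all genes at 0.32. As for S181E, calls over all genes in these fits are not given here.

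In control RQ had the fewest calls of the mutants. RPL29 alone was called lower at -0.52 (SE 0.12, adjusted p = 0.0099, edgeR) and 0 members higher, against 2.83% and 3.51% of all genes, and the median was 0.13 against 0.03. Same-numbered libraries gave medians of 0.15, 0.20 and -0.11, and the median turned to -0.10 without RQ control library 2 and to -0.04 without WT control library 3. RPL29 had 694, 718 and 563 CPM in RQ, 1029.8, 937 and 872 in WT, 673, 696 and 559 in S181E and 461, 470.2 and 364 in Y396E. All 9 mutant libraries of RPL29 lay below the lowest WT library. The estimates in RQ ran from -0.52 to 0.60 over the 77 members, and a member that was not called was not shown to be equal. Without RQ control library 3 there were 3 called higher, and without WT control library 2 there was 1. Without all control libraries numbered 3 there were 6, and with the number as a block there were 5. Calls over all genes in these fits are again not given.

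**Figure D4:**
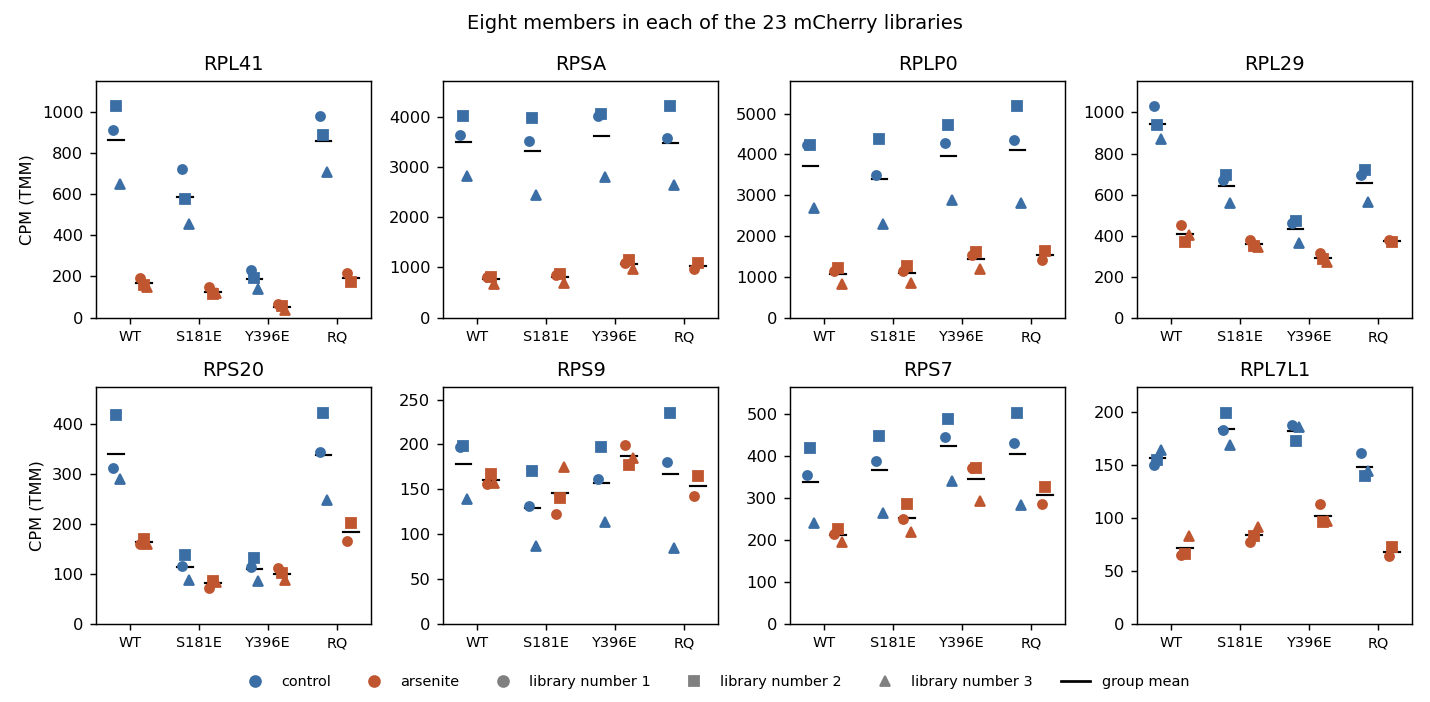
CPM (y axis, linear from 0, a scale of its own in each panel) of 8 members in the 23 mCherry libraries (points, with shape by library number and colour by treatment) by line (x axis), with lines at the group means. RPL41 is lowest in Y396E in both treatments, RPS20 is low in S181E and Y396E, and RPSA and RPLP0 are lower in arsenite in every line.

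In arsenite the mutants departed from WT in other ways. S181E had 1 member called lower, RPS20 at -1.01 (SE 0.18, adjusted p = 0.00078, edgeR), and 0 higher, against 5.34% and 2.2% of all genes, and the median was -0.04 against 0.01 (0.12 against 0.17 scaled to total counts). Here libraries of the same number varied together in all 3 pairs, and with the number as a block 5 members were lower. Calls over all genes in that fit are not given here. Y396E had 4 members lower and 8 higher, against 19.4% and 13.1% of all genes, and a median of 0.27 against 0.01. Same-numbered libraries gave 0.33, 0.31 and 0.18. Members called lower were RPL41 at -1.67, RPS20 at -0.70, RPL29 at -0.49 and RPL37 at -0.32. RPL41 had 64.9, 53.8 and 38.4 CPM in Y396E and 194, 156 and 151 in WT.

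Among the 8 higher in Y396E were RPS7, which binds MDM2, at 0.70 and RPL21 at 0.53, with RPL14 (0.30), RPL6 (0.44) and RPSA (0.49) the smallest. RPS7 had 371, 372 and 293.5 CPM in Y396E and 215, 226 and 196 in WT, without overlap. RPL7L1 was also higher, at 112.9, 95.7 and 96.6 CPM against 64.9, 66.1 and 82.5. The split of these calls depended on the scaling. It was 1 lower and 20 higher scaled to total counts, where the median of all genes was 0.23, and 8 lower and 1 higher scaled on genes that did not exceed the parental level, where that median was -0.22. Relative to the median of all genes the median member was at 0.26 in all 3. The count of higher members was 3 to 5 without any 1 WT arsenite library (4, 5 and 3 without libraries 1, 2 and 3), 4 and 3 without Y396E arsenite libraries 1 and 2, and 10 without library 3. It was 27 with the library number as a block and 41 when only the WT and Y396E arsenite libraries were fitted. Calls over all genes in these fits are not given here, so neither count is a result about the members alone. RQ in arsenite had 0 members called in either direction (0.218% and 0.286% of all genes), with a median of 0.22 against -0.01. At an unadjusted p under 0.05 there were 15 of 77 members and 842 of all 8734 genes. DESeq2 called 1 member higher, the block on the library number 3, and a fit of only the WT and RQ arsenite libraries 34. For these alternatives, too, calls over all genes are not given here.

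RPS20 was apart from WT in S181E and Y396E in both treatments. In control it had 310.4, 416 and 289.9 CPM in WT, 344, 422 and 248 in RQ, 114.5, 138 and 87.7 in S181E and 113, 132 and 86.3 in Y396E. In arsenite it had 159.9, 169 and 159 CPM in WT, 165 and 202 in RQ, 71.8, 86.0 and 84.4 in S181E and 110.7, 101 and 88.3 in Y396E. Every S181E and Y396E library was below every WT and RQ library of its treatment. RPS20 lies on the long arm of chromosome 8, as do RPL7, RPL30 and RPL8, and the lines differed in the other genes of that arm as well. The 192 tested genes of 8q that are no members had a median of -0.52 in S181E against WT in control (106 called lower) and -0.57 in Y396E (124), and -0.56 (116) and -0.67 (132) in arsenite. In RQ their medians were 0.05 and -0.01. Their part in the members' result was not tested.

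With the 4 members on 8q set apart, the 73 members elsewhere had a median of -0.36 in S181E in control (8 called lower) and -0.24 in Y396E (11), against 0.06 over the 8348 other genes elsewhere in both. Of these other genes in control, 574 were lower and 1094 higher in S181E, and 962 lower and 1387 higher in Y396E. The share called lower was thus 10.96% of the members and 6.88% of the other genes in S181E. In Y396E in control it was 15.07% and 11.52%. In arsenite the 73 members had -0.03 in S181E (0 called) and 0.30 in Y396E (3 lower and 8 higher), against 0.01 in both. Of the 8348 other genes 346 were lower and 182 higher in S181E, and 1537 lower and 1121 higher in Y396E. In Y396E in arsenite 4.11% of the members and 18.4% of the other genes were lower. In S181E in control all 4 members on 8q were called, and RPL7 was at -0.48. In RQ in control the median of the 4 was 0.01. RPL8 and RPL7 were not called in Y396E in control, at -0.44 and -0.27, and RPL30 was, at -0.66.

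**Figure D5:**
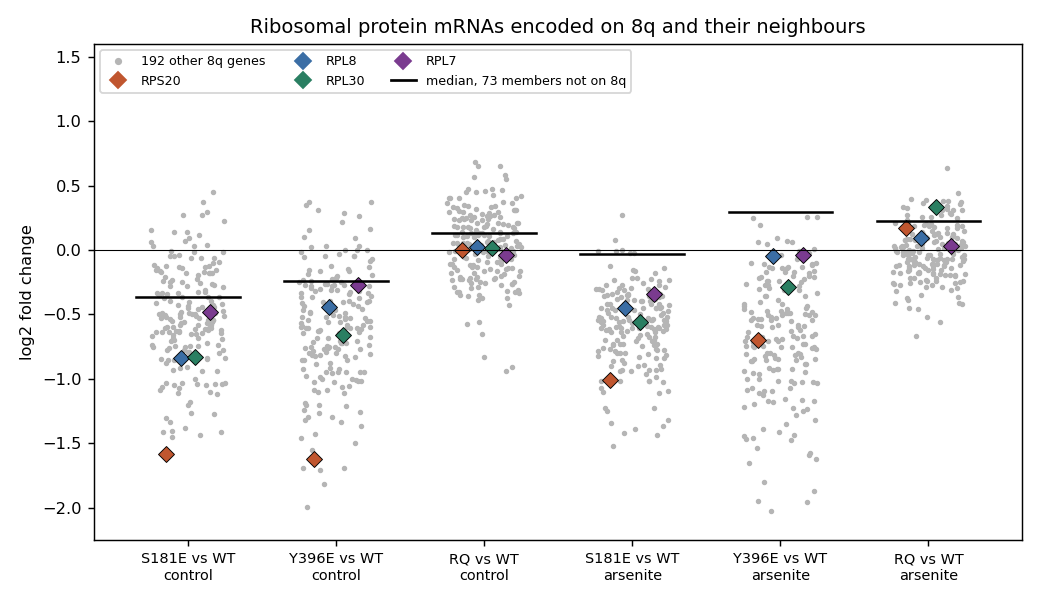
Log2 differences of mutant against WT (y axis) by line and treatment (x axis) for the 4 members on 8q (diamonds) and the 192 other tested genes of 8q (grey points), with a line at the median of the 73 members elsewhere. In S181E and Y396E the other genes of 8q have medians from -0.52 to -0.67, while in RQ they lie at 0.05 and -0.01.

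Short members were further below WT than long ones in the phosphomimetic lines in control. Spearman's rho between coding length and log2 difference was 0.48 in S181E and 0.58 in Y396E over the 77 members, and -0.03 and -0.04 over the 8657 other genes. With exon length in place of coding length it was 0.11 and 0.01 over the members. The 10 members with coding sequences up to 300 bases had medians of -0.50 and -0.61, and 147 other genes of that class had -0.11 and -0.17. RPL41, RPS27 and RPL37 are in this class. In the Y396E interaction with arsenite the rho over members was -0.50, against -0.11 over others. These correlations share their libraries and are descriptions.

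The related groups were read in the same comparisons and were not split by chromosome arm. In S181E in control 5 of 20 other TOP mRNAs were lower and 0 higher (median -0.25), 1 of 27 assembly genes lower and 3 higher, and 0 of 61 mitochondrial ribosomal protein genes lower and 5 higher. In Y396E in control the TOP mRNAs had 5 lower and 0 higher (median -0.06) and the mitochondrial ribosomal proteins 3 lower and 8 higher (median 0.15). In Y396E in arsenite the assembly genes had 0 lower and 11 higher, with a median of 0.37, and the mitochondrial ribosomal proteins 6 lower and 11 higher, with a median of 0.33.

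The parental libraries give the level reached without mCherry-IGF2BP1, in cells that the paper calls nonengineered. These cells may thus differ from the mCherry lines in the knockouts of IGF2BP2 and IGF2BP3 as well. In arsenite 0 of 77 members were at least 4-fold above the parental library in WT, against 9.18% of all genes, and 67 were below it, against 43%. The median ratio was 0.503 over members and 1.14 over all genes, from 0.231 for FAU to 2.21 for RPL41. In Y396E the ratio of RPL41 was 0.678. In all 4 arsenite groups together, 59 of the 77 members were at or below the parental level, as were 3064 of all 8734 genes. There was 1 parental library, so these ratios have no replicate check.

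In control the median ratio of WT to parental was 1.36 over members, and 5 of 77 were at least 4-fold above, against 49% of all genes, many of which had no counts in the shallow parental library. RPL41 stood at 49.7-fold on 27 parental counts (95% exact Poisson interval 34.2 to 75.4, for counting error only), and at 10.6-fold (7.27 to 16.0) in Y396E. RPSA was at 5.06-fold and RPL29 at 4.14-fold (3.73 to 4.61), and RPL29 in Y396E at 1.87-fold. RPL22 and RPL39 had 0 parental counts and were at least 46.7-fold and at least 14.0-fold above the 3 counts that a count of 0 allows. In the deeper parental arsenite library they had 977 and 251 counts, and the ratios of WT in arsenite were 0.952 and 1.61. The control floors thus do not show that the beads alone recover none of these mRNAs. In control, scaled to total counts, 3 members were at least 4-fold above. From the parental control to the parental arsenite library, genes with at least 100 counts in the control library were compared. The 71 such members had a median log2 change of 0.14, against -0.32 over 2062 genes, while the same members in WT had -1.04. Choosing genes by their control count favours falls in the parental values. With 1 library for each treatment this is a description.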

How the data were processed

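Single-end RIP-seq libraries (RFP-Trap beads, rRNA depletion with riboPOOL, a directional kit) were deposited as gene counts. Per the file headers, the authors counted reads with featureCounts (Subread 2.0.6) over exons by gene on the reverse strand (setting 2), and per the labels and methods reads were demultiplexed with bcl2fastq 2.20.0.422, checked with FastQC 0.11.9 and aligned to hg38 with STAR 2.7.11b under GENCODE 46. Reads with several matches or over several genes were not counted, which lowers genes with close copies. Symbols, biotypes and coding lengths came from GENCODE 44, which matched 62541 of 63086 gene identifiers; 545 had none.

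Counts of protein-coding genes were TMM-scaled, filtered (CPM above 10 in 12 or more of 23 mCherry libraries, 8734 genes) and fitted over 8 groups with edgeR 4.0.16 (glmQLFit and glmQLFTest, R 4.3.3), adjusted by Benjamini-Hochberg over all genes tested. SE is the size of the log2 change over the square root of F. Parental libraries entered no test. DESeq2 1.42.0 and limma 3.58.1 served alternatives, and tables were made in Python 3.11.15 with pandas 2.3.3. The fit was tested on simulated data. Members named were the 3 highest and 3 lowest called members without overlap in each comparison (all called in interactions and averages) and a fixed list of 30 genes. RPS9, RPL8 in WT arsenite, and ranges outside this rule were chosen after their values were seen. The members and lists were chosen with earlier results of these data known. Over all genes tested, same-numbered libraries correlated above 0.1 in all 3 pairs (0.29, 0.30 and 0.40, deviations from group means) in S181E against WT in arsenite and in no other comparison of a mutant with WT that has 3 pairs. Over the members alone more comparisons passed this limit, so a fit blocked on the number is quoted wherever it moved a count. Intervals and floors cover counting error only. Alternatives were scaling, filter, test, samples fitted, a replicate block and leaving out each library. Counts of members under an alternative are given without the counts over all genes under it. They describe only how far the members' count moved. Some members' own values are not reported here.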

Additional observations from a re-analysis of the deposited data

Results flagged for a closer look

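In 3 of 77 members (3.90%) the change with arsenite differed between Y396E and WT in a test of the difference itself (edgeR interaction, adjusted p under 0.05). Over all genes 2.85% were called either way, so the members' share was near that of all genes. The difference in log2 change was 0.93 for RPL23A, 0.73 for RPL23 and 0.65 for RPL29, each a smaller fall in Y396E, with adjusted p of 0.026, 0.046 and 0.030. RPL23 had 439, 534 and 422 CPM in WT control and 334, 328 and 246 in Y396E control, and 193, 151 and 179 in WT arsenite and 205, 195 and 164 in Y396E arsenite. The control libraries of the lines were apart and the arsenite libraries overlapped. With 1 library left out, this interaction had 0 to 5 called members, so these calls depended on single libraries. Groups of 3 libraries were too small to tell which library was outlying.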

How the results depend on the processing

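When 1 library was left out, the members lower in WT arsenite numbered 67 to 73 and in the average 73 to 74, with 0 to 0 higher in both, and the S181E and RQ interactions had 0 to 0. No single member's called direction turned. The median member turned sign in Y396E in control (0.02 with total counts), in RQ in control (-0.10 and -0.04 without 1 library), in S181E in arsenite (0.12 with total counts) and in the RQ interaction (-0.08 and -0.04 without 1 library). Of 393 alternatives for counts and shares, 315 stayed within 1.5 times, and of 1848 for single members, 152 lost a call and 0 turned. The counts for S181E and Y396E in control, Y396E in arsenite and the Y396E interaction moved by over 1.5 times when 1 library was left out, and the cause was not tested. Groups hold 2 or 3 libraries, and the parental control library has few counts. The counts by mutant line in arsenite against control were not run under the alternatives.

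Scaled to total counts, S181E in control had 4 lower and 1 higher, Y396E in control 5 and 4, RQ in control 0 and 1, S181E in arsenite 1 higher, Y396E in arsenite 1 and 20, and the Y396E interaction 0. With TMM on the genes that did not exceed the parental level, Y396E in control had 26 lower, S181E in arsenite 3 lower and Y396E in arsenite 8 lower and 1 higher. The DESeq2 Wald test gave 21 lower for S181E and 22 for Y396E in control, 2 lower for S181E and 1 higher for RQ in arsenite and 7 in the Y396E interaction. A test against a change of 20% (glmTreat) gave 4, 7 and 0 lower for S181E, Y396E and RQ in control, 2 lower and 2 higher for Y396E in arsenite and 0 in its interaction. The filterByExpr filter gave 5 higher for Y396E in arsenite. Without a filter on low counts there were 27 lower for S181E and 22 for Y396E in control, 1 higher for RQ in control, 2 lower for S181E in arsenite, 1 higher for RQ in arsenite and 6 in the Y396E interaction. Fitted on only the groups compared, S181E in control had 5 lower, RQ in control 0 lower, S181E in arsenite 5 lower, Y396E in arsenite 41 higher and RQ in arsenite 34 higher. This fit was not run for the average.

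With the replicate number as a block, S181E in control had 45 lower, Y396E in control 29 lower and 2 higher, RQ in control 5 higher, S181E in arsenite 5 lower, Y396E in arsenite 27 higher, RQ in arsenite 3 higher and the Y396E interaction 30. Same-numbered libraries correlated above 0.1 in all 3 pairs over all genes in S181E in arsenite only, and over the members alone also in Y396E in control (0.26 to 0.74), RQ in control (0.43 to 0.73), Y396E in arsenite (0.46 to 0.55) and WT arsenite against control (0.22 to 0.40). Elsewhere the block changed no count by over 1.5 times. With the control libraries numbered 3 left out, chosen after seeing the data, there were 33 lower for S181E and 23 for Y396E in control, 6 higher for RQ in control, 1 in the S181E and 24 in the Y396E interaction.

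Leaving out 1 library gave 4 to 24 lower and 0 to 0 higher for S181E in control, 7 to 19 and 0 to 0 for Y396E in control, 1 to 1 and 0 to 3 for RQ in control, 1 to 1 and 0 to 0 for S181E in arsenite, 3 to 4 and 3 to 10 for Y396E in arsenite, 0 to 0 and 0 to 0 for RQ in arsenite, and 0 to 5 in the Y396E interaction. As a share of all counts the members took 2.83% in mCherry control, 1.63% in mCherry arsenite, 4.15% in parental control and 4.53% in parental arsenite libraries, and without their top 3 genes the parental shares were 6.25 and 4.95%. The median ratio of WT to parental in arsenite was 0.305 with total counts and 0.462 with DESeq2 size factors, and 8 of the first 10 members by level per kilobase were shared by both lengths.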
